A study of Homo sapiens with 4 samples.

Results

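The 45 genes examined here encode the core machinery of DNA replication, from the proteins that mark origins to the polymerases that copy the template and the enzymes that make deoxynucleotides. They were taken by symbol from the gene-level count table, in which all 45 had a row among 22637 genes. The selection rule used no measured value, though earlier results of these data were known when the members were chosen. The table came from RNA-seq of 4 human prostate adenocarcinoma cell lines with 1 library each, made to compare olaparib-resistant cells with the parental cells they came from. Olaparib inhibits PARP enzymes, which act in the repair of DNA breaks.

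LNCaP is the castration-sensitive parental line, and LN-OlapR is its olaparib-resistant derivative. C4-2B is a castration-resistant parental line of the LNCaP lineage, and 2B-OlapR is the resistant derivative of C4-2B. The resistant lines arose in long-term culture with olaparib at concentrations that were raised over time, and the drug stayed in their maintenance medium. All 4 cultures were labelled untreated and plated for 48 hours without selection agent, and 100 ng of total RNA went into each stranded mRNA library. The labels do not say whether a resistant line is a clone or a mixed population, and a resistant line differs from its parent in passage and drug history as well as in resistance, so these cannot be told apart.

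Library totals ran from 19950537 counts in C4-2B to 26394267 in LNCaP. Levels are given as normalized CPM, the count scaled to 1000000 counts of library size after TMM normalization, a correction for differences in RNA composition. A count of 0 allows a level of up to 0.112 to 0.147 normalized CPM, depending on the library and taking 3 counts as the upper limit. Luminal prostate markers were abundant in the 4 libraries: the prostate homeobox gene HOXB13 was at 381 to 507 normalized CPM and the luminal keratin gene KRT18 at 375 to 422. The LNCaP library stood apart in KLK3, the gene of prostate-specific antigen, at 53.1 (LNCaP) and 2685 (LN-OlapR) normalized CPM, and 2412 (C4-2B) and 1870.1 (2B-OlapR). The LN pair and the comparison of the parental lines both rest on that single LNCaP library, so no value without it can be given. Whether the label or the culture accounts for the low KLK3 cannot be told apart with 1 library, and the values of those comparisons hold for the library labelled LNCaP. Of 10 markers of other cell types, 4 had rows; KRT14, of basal cells, was at 0.112 to 0.557 normalized CPM, and CD68, of macrophages, at 0.409 (LNCaP) and 5.14 (LN-OlapR), and 4.20 (C4-2B) and 2.17 (2B-OlapR). COL1A1, of fibroblasts, was at 15.2 (LNCaP) and 8.23 (LN-OlapR), and 16.1 (C4-2B) and 7.14 (2B-OlapR), lower in each resistant line than in its parent (log2 ratio -1.17 in the C4-2B branch and -0.88 for LN-OlapR), and its part in the results was not tested. SYP, of neuroendocrine cells, was at 2.64 (LNCaP) and 3.13 (LN-OlapR), and 2.44 (C4-2B) and 2.85 (2B-OlapR). KRT5, TP63, PTPRC, COL1A2, PECAM1 and CHGA were not analysed here.

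In G1 the origin recognition complex, with CDC6 and CDT1, loads MCM2-7 helicases onto origins, which is called licensing, and geminin (GMNN) restrains CDT1 once S phase has begun. CDC45, the GINS complex and MCM10 turn the loaded helicase into a moving fork, where polymerase alpha-primase lays primers, polymerases delta and epsilon extend them, PCNA tethers the polymerases, the RFC complex loads PCNA and RPA coats single-stranded DNA. Many of these genes are transcribed in late G1 under E2F factors, which the retinoblastoma protein holds back until cyclin-dependent kinases release them. In bulk RNA, fewer cells in S phase and less RNA per cell cannot be told apart.

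The 45 genes lie on 19 chromosomes and all were well measured, with 82 counts for the lowest value of any member in any library (ORC3 in C4-2B) and 10507 for the highest (MCM7 in LN-OlapR). All 45 passed the filter on low values in each comparison. Their summed level was 3952 (LNCaP) and 3993 (LN-OlapR) normalized CPM, and 4494 (C4-2B) and 5180 (2B-OlapR). This was 0.384% to 0.516% of each library's counts, lowest in LN-OlapR and highest in 2B-OlapR. For 8 of the 45 the highest library was at least 2-fold above the lowest, against 33.9% of all genes tested: ORC3 (3.82-fold), RFC3 (3.48-fold), CDC45 (2.75-fold), MCM3 (2.62-fold), E2F1 (2.42-fold), CDT1 (2.23-fold), POLD1 (2.05-fold) and MCM5 (2.01-fold). The share of all genes was not matched to the members in level, and genes with few counts can reach such a spread by counting error. The highest level was in 2B-OlapR for 21 members, against 29.4% of all genes, and the lowest level was in 2B-OlapR for 10. LNCaP was highest for 9, LN-OlapR for 8 and C4-2B for 7. Apart from the 21, these counts have no share over all genes beside them.

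**Figure D1:**
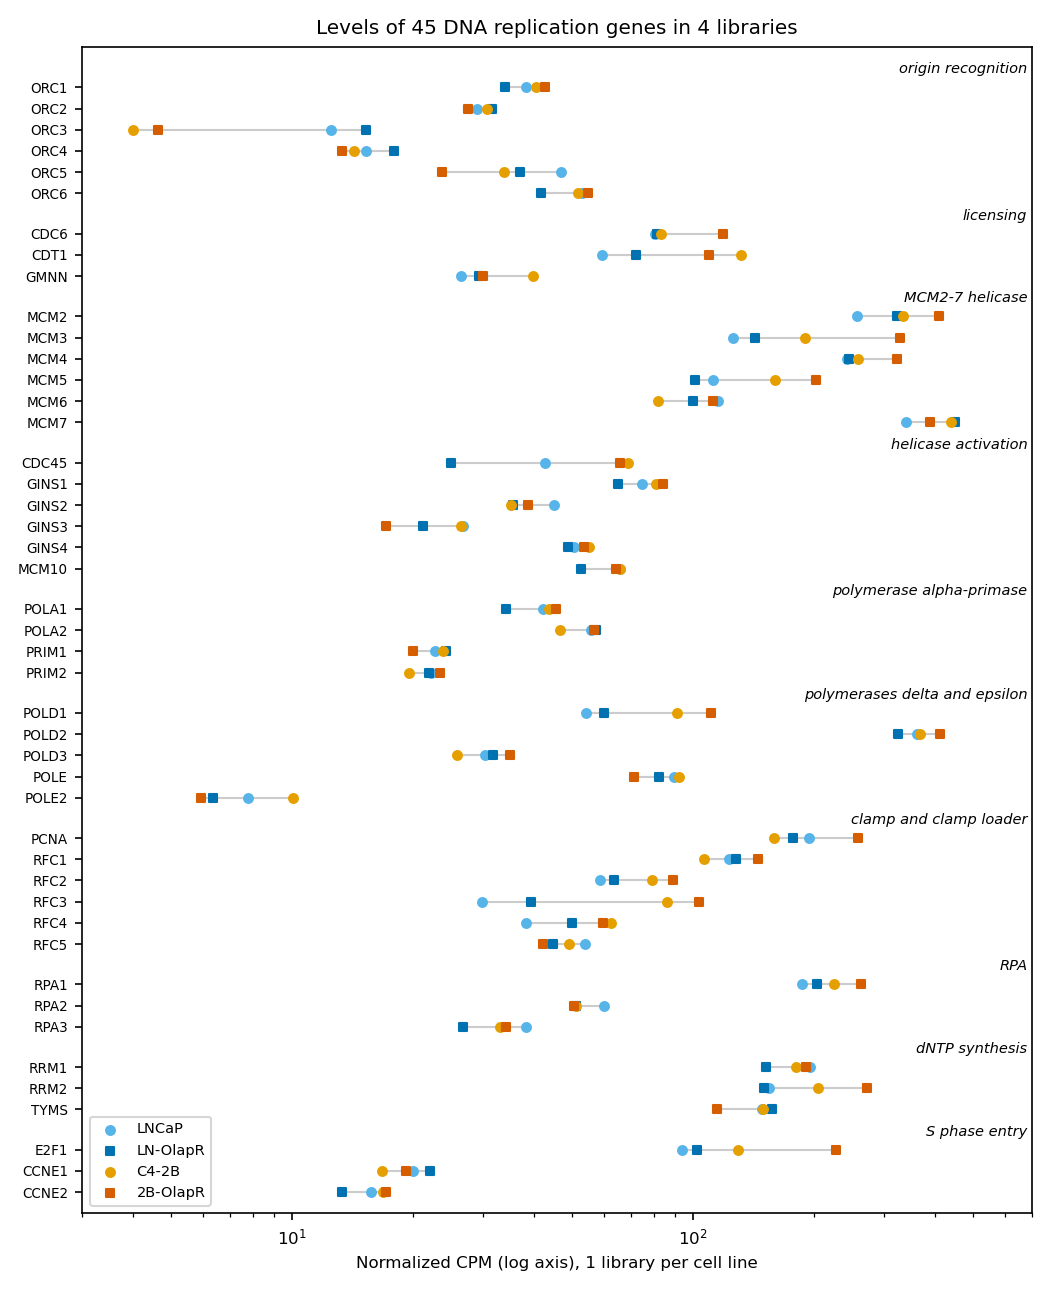
Normalized CPM on a log axis for the 45 genes, grouped by role, with 1 point per cell line and a grey line over the range. ORC3 and RFC3 show the C4-2B and 2B-OlapR points far from the LNCaP and LN-OlapR points, while most other members lie within a narrow range.

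Promoters are shown because many of the members hold a regulatory motif that their choice did not use. Of the 45 genes, 38 had a promoter in the RefSeq table of GRCh38.p14, spanning 250 bases before to 50 after each start; CCNE2, GINS4, MCM4, MCM5, POLD3, RPA2 and RPA3 were not matched. The E2F motif was searched on both strands as TTTCCCGC, TTTCGCGC, TTTGCCGC or TTTGGCGC, and matches on opposite strands could overlap. It was found for 19 of the 38 genes, against 3.99% of the 27305 genes in the table. The CCAAT box, searched on both strands as these 5 letters, was found for 63.2% of the member genes and 39.7% of all genes. The windows below cover 130 bases before to 20 after the start, 5′ to 3′ along the gene, with E2F matches in capitals. The first 5 belong to the members that passed 1.5-fold between 2B-OlapR and C4-2B. All hold a match in the window shown, whether the level was higher (E2F1, MCM3, PCNA) or lower (GINS3, POLE2). The other start of PCNA, not shown, holds none. MCM6 shows 2 matches on opposite strands that overlap. CDC45, the member with the lowest ratio in LN-OlapR, has no match to the searched forms at its 3 starts, of which 1 is shown. Another of its starts holds tttggcgg, which differs from TTTGGCGC in the last letter only, so the exact search missed a near form there. MCM10, also counted as without a match, holds the same letters. Near forms were not searched for across the members.
E2F1, chr20:33686366-33686515, minus strand: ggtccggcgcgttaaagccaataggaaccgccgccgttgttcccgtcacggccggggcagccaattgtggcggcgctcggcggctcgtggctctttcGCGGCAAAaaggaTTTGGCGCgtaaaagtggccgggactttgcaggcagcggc
MCM3, chr6:52284723-52284872, minus strand: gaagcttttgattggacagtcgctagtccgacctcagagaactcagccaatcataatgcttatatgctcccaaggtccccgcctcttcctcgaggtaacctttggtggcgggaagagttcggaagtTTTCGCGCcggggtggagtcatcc
PCNA, chr20:5126603-5126752, minus strand: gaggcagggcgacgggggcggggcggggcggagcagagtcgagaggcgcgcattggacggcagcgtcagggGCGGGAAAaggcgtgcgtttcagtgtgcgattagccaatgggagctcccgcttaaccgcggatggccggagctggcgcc
GINS3, chr16:58392341-58392490, plus strand: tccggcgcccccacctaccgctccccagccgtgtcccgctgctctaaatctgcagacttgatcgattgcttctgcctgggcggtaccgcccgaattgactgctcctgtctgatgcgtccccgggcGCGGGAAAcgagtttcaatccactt
POLE2, chr14:49688195-49688344, minus strand: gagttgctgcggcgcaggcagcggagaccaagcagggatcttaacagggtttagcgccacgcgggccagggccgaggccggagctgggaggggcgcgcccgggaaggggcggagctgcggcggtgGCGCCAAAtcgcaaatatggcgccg
MCM6, chr2:135876424-135876573, minus strand: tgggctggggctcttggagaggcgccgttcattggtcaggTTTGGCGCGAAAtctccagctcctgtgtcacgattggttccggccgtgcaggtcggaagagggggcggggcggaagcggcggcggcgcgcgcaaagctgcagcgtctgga
CDC45, chr22:19479336-19479485, plus strand: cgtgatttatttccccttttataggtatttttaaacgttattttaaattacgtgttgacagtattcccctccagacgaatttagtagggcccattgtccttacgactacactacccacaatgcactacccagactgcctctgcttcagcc

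Members with and without the motif lay on both sides of 0 in both pairs. Between 2B-OlapR and C4-2B the 19 genes with a match had a median log2 ratio of 0.14 (from -0.76 to 0.81), and the 19 without one in this window a median of 0.08. Between LN-OlapR and LNCaP the medians were 0.05 and -0.01. A match describes letters in the window and says nothing of binding in these cells.

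The first comparison asked how replication genes differed between 2B-OlapR and parental C4-2B (the 2B pair). At the top were E2F1, the transcription factor of S phase entry, MCM3, a subunit of the replicative helicase, and PCNA, the sliding clamp. POLE2, an accessory subunit of polymerase epsilon, and GINS3, a subunit of the GINS complex, were at the bottom. Of the 45 members 3 were more than 1.5-fold higher in 2B-OlapR, against 10.7% of all genes above a filter on low values (mean of 1 normalized CPM), and 2 were more than 1.5-fold lower, against 13.5%. With 1 library per line no test was possible within a pair. Each ratio carries a 95% interval from its 2 counts, which covers counting error only and not the spread between cultures. By these intervals 19 members lay above 0, against 31.5% of all genes, 10 lay below, against 30.8%, and 16 included 0. The width of an interval depends on the counts, and these shares of all genes were not matched to the members in level. The median log2 ratio of the members was 0.08, beside -0.00026 over the 15527 genes tested.

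The second comparison set LN-OlapR against parental LNCaP (the LN pair). CDC45, the helicase cofactor that the fork needs to move, was the only member past 1.5-fold, and it was lower in LN-OlapR. No member was past 1.5-fold higher, against 10.6% of all genes, and 1 was past it lower, against 10.8%. Intervals lay above 0 for 13 members, against 31.7% of all genes, and below 0 for 19, against 31.3%. The median log2 ratio was -0.01, beside -0.0040 over all genes tested, with 22 members higher and 23 lower. The pairs share no library. In 8 members the intervals lay on opposite sides of 0 in the 2 pairs, against 16.3% of all genes, and in 11 on the same side, against 27.3%. With counts scaled by library totals in place of TMM, the LN pair had 6 members above 0 and 2 past 1.5-fold lower.

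The pairs were also read together, as both resistant against both parental lines with the lineage as a block, in an edgeR quasi-likelihood fit chosen after the data were seen. It treats the 2 pairs as replicates and leaves 1 residual degree of freedom. No member had an adjusted p under 0.05, against 0% of the 15645 genes fitted. The smallest adjusted p among the members was 0.643 in this edgeR fit, for MCM3 (log2 difference 0.49, higher in both resistant lines). At an unadjusted p under 0.05 there were 0 members, against 8.18% of all genes. In the edgeR fit without the lineage block 0 members passed as well, adjusted or unadjusted.

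**Figure D2:**
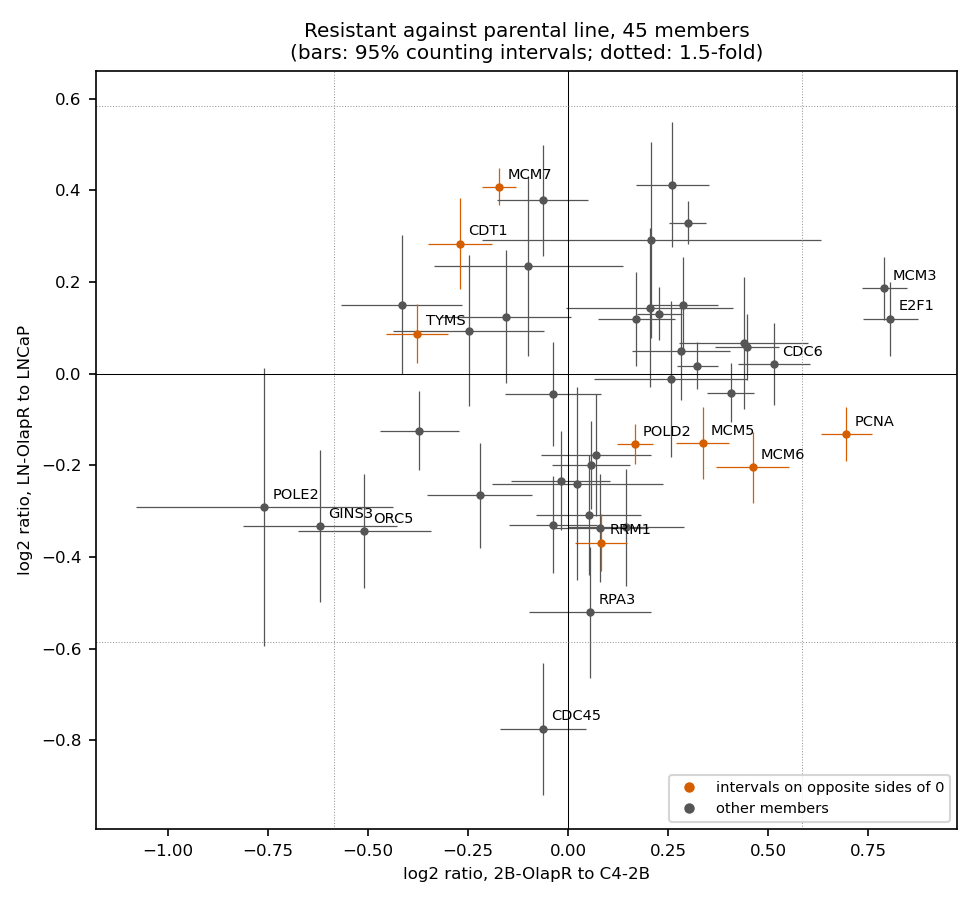
Log2 ratio of each member in the 2B pair (x axis) against the LN pair (y axis), with bars for the 95% counting intervals and dotted lines at 1.5-fold. E2F1, MCM3 and PCNA lie right of the dotted line, POLE2 and GINS3 left of it, CDC45 alone lies below, and 8 orange points have intervals on opposite sides of 0.

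None of the 6 origin recognition genes passed 1.5-fold in either pair. Of all genes 10.7% passed it higher and 13.5% lower in the 2B pair, and 10.6% and 10.8% in the LN pair. In the 2B pair 5 of 6 intervals included 0. ORC5, a core subunit, was lower in both resistant lines, at 46.9 (LNCaP) and 37.0 (LN-OlapR) normalized CPM, and 33.7 (C4-2B) and 23.6 (2B-OlapR). Its log2 ratio was -0.51 for 2B-OlapR (interval -0.68 to -0.34) and -0.34 for LN-OlapR (-0.47 to -0.22). ORC3, the subunit with the highest ratio in both pairs, was at 12.5 (LNCaP) and 15.3 (LN-OlapR) normalized CPM, and 4.01 (C4-2B) and 4.63 (2B-OlapR). Both lines of the C4-2B branch were far below both LNCaP lines, and at counts of 82 and 96 the ratio within the C4-2B branch was imprecise (log2 ratio 0.21, interval -0.22 to 0.63). In the LN pair the intervals of ORC3 and ORC4 lay above 0 and those of ORC1, ORC5 and ORC6 below it.

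The 3 licensing genes split in the 2B pair. CDC6, the ATPase that helps to load the helicase, was at 80.1 (LNCaP) and 81.3 (LN-OlapR) normalized CPM, and 83.3 (C4-2B) and 119 (2B-OlapR), so that only 2B-OlapR stood out (2B pair log2 ratio 0.51, interval 0.43 to 0.60). CDT1, its partner in loading, was at 59.1 (LNCaP) and 71.98 (LN-OlapR) normalized CPM, and 132 (C4-2B) and 109 (2B-OlapR), which was lower in 2B-OlapR than in its parent (log2 ratio -0.27, interval -0.35 to -0.19) and higher in LN-OlapR than in LNCaP (log2 ratio 0.28, interval 0.19 to 0.38). Geminin (GMNN), the inhibitor of CDT1, was at 26.3 (LNCaP) and 29.2 (LN-OlapR) normalized CPM, and 39.9 (C4-2B) and 29.9 (2B-OlapR). C4-2B was its highest library, and the 2B ratio was -0.42 (-0.57 to -0.27).

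Among the members' role groups, which hold 3 to 6 genes, the MCM2-7 helicase genes had the highest 2B median, 0.33 on the log2 scale. Of their intervals 5 of 6 lay above 0, against 31.5% of all genes, a share not matched in level. MCM3 was at 125 (LNCaP) and 143 (LN-OlapR) normalized CPM, and 190.0 (C4-2B) and 328 (2B-OlapR), its level in 2B-OlapR being 1.73-fold that in C4-2B (log2 ratio 0.79, interval 0.73 to 0.85). MCM7, the only subunit below 0, was at 339.5 (LNCaP) and 450.4 (LN-OlapR) normalized CPM, and 439 (C4-2B) and 389 (2B-OlapR) (2B pair log2 ratio -0.17, interval -0.22 to -0.13). In the LN pair the same gene was the highest of the group (log2 ratio 0.41, interval 0.37 to 0.45). MCM6 was at 115 (LNCaP) and 100.1 (LN-OlapR) normalized CPM, and 81.5 (C4-2B) and 112 (2B-OlapR), above the parent in the 2B pair (log2 ratio 0.46, interval 0.37 to 0.55) and below it in the LN pair (log2 ratio -0.20, interval -0.28 to -0.13). C4-2B held the lowest MCM6 level, and 2B-OlapR lay near LNCaP. MCM5 was at 112 (LNCaP) and 101 (LN-OlapR) normalized CPM, and 160.4 (C4-2B) and 202 (2B-OlapR), with a 2B log2 ratio of 0.34 and an LN log2 ratio of -0.15. MCM2 and MCM4 had 2B ratios of 0.30 and 0.32 and LN ratios of 0.33 and 0.02.

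The 6 proteins form a ring with 1 copy of each, but their transcript levels per annotated length were not equal. Which transcripts the cells used was not measured, so these levels depend on the annotation. Per kilobase of the longest annotated transcript, MCM7 was highest in each library, from 110.1 normalized CPM per kb in LNCaP to 146 in LN-OlapR. MCM5 was lowest in LNCaP (24.3) and LN-OlapR (21.9), and MCM6 in C4-2B (21.8) and 2B-OlapR (30.0). The highest subunit was 4.20 to 6.66 times the lowest, or 3.30 to 7.47 times with the length of all merged exons. MCM3 went from 59.2 in C4-2B to 102 in 2B-OlapR. With the length of all merged exons instead, MCM3 (90.0) was level with MCM7 (88.8) in 2B-OlapR. In the origin recognition complex, which the cell also builds from 6 subunits, ORC4 was lowest per kb in LNCaP (2.27) and LN-OlapR (2.68), and ORC3 in C4-2B (1.60) and 2B-OlapR (1.84). The order of the higher ORC subunits depended on the length used.

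**Figure D3:**
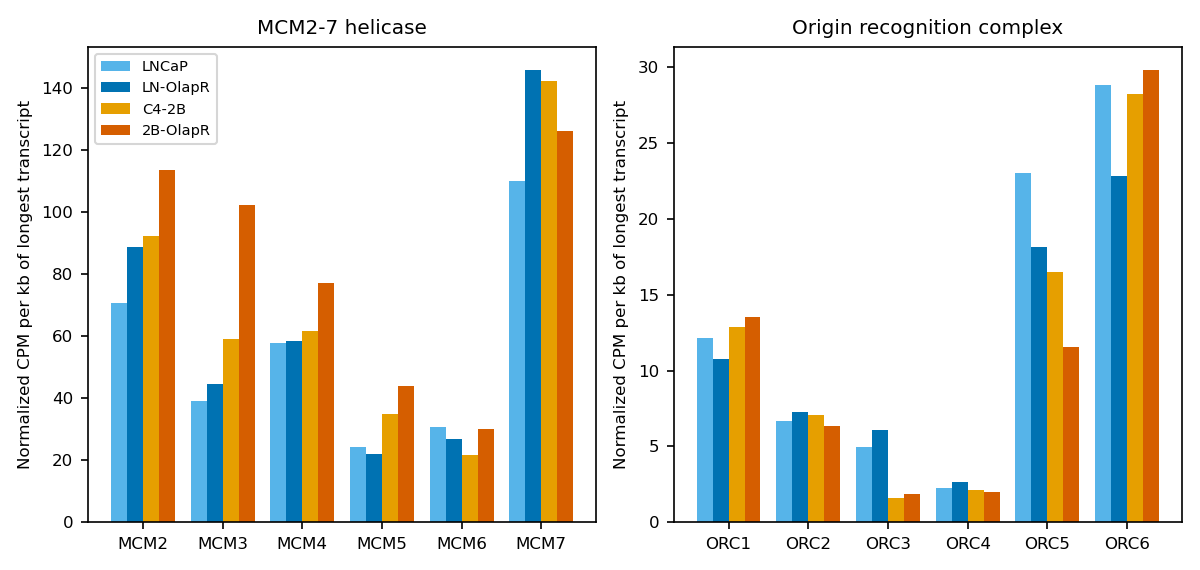
Normalized CPM per kb of the longest annotated transcript for the subunits of the MCM2-7 helicase (left) and the origin recognition complex (right), with 1 bar per cell line and no error bars because each line has 1 library. MCM3 is taller in 2B-OlapR than in the other lines, and ORC3 is shorter in C4-2B and 2B-OlapR.

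Helicase activation had the lowest median of the members' role groups in the LN pair. All 6 genes were lower in LN-OlapR, 5 with intervals below 0 against 31.3% of all genes, and the median log2 ratio was -0.33. CDC45 was at 42.7 (LNCaP) and 25.0 (LN-OlapR) normalized CPM, and 68.7 (C4-2B) and 65.7 (2B-OlapR). LN-OlapR had the lowest level of the 4 libraries, 1.71-fold below that of LNCaP (log2 ratio -0.77, interval -0.92 to -0.63), whereas C4-2B and 2B-OlapR were the highest and were close to each other (log2 ratio -0.06, interval -0.17 to 0.04). GINS3 was at 26.7 (LNCaP) and 21.2 (LN-OlapR) normalized CPM, and 26.3 (C4-2B) and 17.1 (2B-OlapR), lower in both resistant lines (2B pair log2 ratio -0.62, interval -0.81 to -0.43). GINS2 was at 44.9 (LNCaP) and 35.6 (LN-OlapR) normalized CPM, and 35.1 (C4-2B) and 38.9 (2B-OlapR), and it had the highest 2B ratio of the group at 0.14, with an interval that included 0, against -0.34 in the LN pair. GINS4 was nearly level, at 50.4 (LNCaP) and 48.8 (LN-OlapR) normalized CPM, and 54.98 (C4-2B) and 53.5 (2B-OlapR). GINS1 and MCM10 had LN ratios of -0.20 and -0.33 and 2B ratios of 0.06 and -0.04.

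Polymerase genes lay on both sides of 0. Within polymerase alpha-primase, POLA2, the regulatory subunit, was at 55.5 (LNCaP) and 57.4 (LN-OlapR) normalized CPM, and 46.5 (C4-2B) and 56.5 (2B-OlapR), and had the highest 2B ratio of the 4 genes (log2 ratio 0.28, interval 0.16 to 0.41). PRIM1, the catalytic primase subunit, was at 22.7 (LNCaP) and 24.2 (LN-OlapR) normalized CPM, and 23.8 (C4-2B) and 20.03 (2B-OlapR), and was lower in 2B-OlapR (log2 ratio -0.25, interval -0.44 to -0.06). POLA1, the catalytic subunit, was at 42.2 (LNCaP) and 34.1 (LN-OlapR) normalized CPM, and 43.8 (C4-2B) and 45.4 (2B-OlapR), with its lowest level in LN-OlapR (LN pair log2 ratio -0.31, interval -0.44 to -0.18). PRIM2, the other primase subunit gene, had a 2B ratio of 0.26 (0.07 to 0.45) and an LN ratio of -0.01 (-0.18 to 0.16).

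Among the members the 3 polymerase delta genes had positive 2B ratios, and the 2 polymerase epsilon genes, POLE and POLE2, had negative ones. The small epsilon subunit genes POLE3 and POLE4, which are no members and were named after their values were seen, had 2B ratios of 0.22 (0.15 to 0.30) and -0.20 (-0.35 to -0.06). POLD3 was at 30.2 (LNCaP) and 31.6 (LN-OlapR) normalized CPM, and 25.7 (C4-2B) and 34.8 (2B-OlapR) (2B pair log2 ratio 0.44, interval 0.28 to 0.60). POLD2 was at 361 (LNCaP) and 324 (LN-OlapR) normalized CPM, and 368 (C4-2B) and 413 (2B-OlapR), with intervals above 0 in the 2B pair (0.17) and below 0 in the LN pair (-0.15). The catalytic subunit gene POLD1 was at 54.0 (LNCaP) and 59.9 (LN-OlapR) normalized CPM, and 91.0 (C4-2B) and 111 (2B-OlapR), a pattern in which both lines of the C4-2B branch exceeded both LNCaP lines. POLE2, the lowest of these genes per kb in each library, was at 7.77 (LNCaP) and 6.34 (LN-OlapR) normalized CPM, and 10.1 (C4-2B) and 5.94 (2B-OlapR). Its level in 2B-OlapR was 1.69-fold below that in C4-2B (log2 ratio -0.76, interval -1.08 to -0.44), and its counts in those libraries were 123 and 206. POLE, the catalytic subunit, had a 2B ratio of -0.37 (-0.47 to -0.27) and an LN ratio of -0.12 (-0.21 to -0.04). Per kb of the longest transcript, POLD2 exceeded POLE2 by 30.4-fold to 57.8-fold.

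PCNA, which lies on chromosome 20, 5114953 to 5126626, was at 194.7 (LNCaP) and 178 (LN-OlapR) normalized CPM, and 159 (C4-2B) and 257 (2B-OlapR). The resistant 2B-OlapR was the highest library and its parent the lowest, a ratio of 1.62 (log2 ratio 0.70, interval 0.63 to 0.76), while LN-OlapR was below LNCaP (log2 ratio -0.13, interval -0.19 to -0.07). Of the clamp loader genes RFC3 was at 29.7 (LNCaP) and 39.5 (LN-OlapR) normalized CPM, and 86.2 (C4-2B) and 103 (2B-OlapR). It was higher in each resistant line than in its parent (2B pair log2 ratio 0.26, interval 0.17 to 0.35; LN pair log2 ratio 0.41, interval 0.28 to 0.55), and higher in both lines of the C4-2B branch than in both LNCaP lines. RFC5 was at 53.9 (LNCaP) and 44.8 (LN-OlapR) normalized CPM, and 49.1 (C4-2B) and 42.1 (2B-OlapR), lower in both pairs (-0.22 and -0.27). RFC4 was at 38.4 (LNCaP) and 49.9 (LN-OlapR) normalized CPM, and 62.3 (C4-2B) and 59.6 (2B-OlapR), and LNCaP was its lowest library. RFC1, the large subunit, had a 2B ratio of 0.45 (0.37 to 0.53) and an LN ratio of 0.06, and RFC2 had 0.17 and 0.12.

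The genes of RPA, the trimer that coats single-stranded DNA, had 2B ratios from -0.02 to 0.23. RPA1, the largest subunit, was at 186 (LNCaP) and 204 (LN-OlapR) normalized CPM, and 224 (C4-2B) and 263 (2B-OlapR) (2B pair log2 ratio 0.23, interval 0.17 to 0.28). RPA2 was at 59.9 (LNCaP) and 51.0 (LN-OlapR) normalized CPM, and 51.0 (C4-2B) and 50.4 (2B-OlapR), where LNCaP was above the 3 other libraries. RPA3 was at 38.4 (LNCaP) and 26.8 (LN-OlapR) normalized CPM, and 32.9 (C4-2B) and 34.2 (2B-OlapR), and LN-OlapR was the lowest (log2 ratio -0.52, interval -0.66 to -0.38). Per kb the order was RPA1, RPA2, RPA3 in each library with either length.

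Among the 3 genes of deoxynucleotide synthesis RRM2 and RRM1 were higher in 2B-OlapR than in its parent and TYMS was lower. RRM2, the ribonucleotide reductase subunit that cycles with S phase, was at 155 (LNCaP) and 150.3 (LN-OlapR) normalized CPM, and 205 (C4-2B) and 271 (2B-OlapR), with 2B-OlapR highest (log2 ratio 0.41, interval 0.35 to 0.46). RRM1, the large subunit, was at 196 (LNCaP) and 152 (LN-OlapR) normalized CPM, and 181 (C4-2B) and 191 (2B-OlapR). It was slightly above the parent in 2B-OlapR (log2 ratio 0.08, interval 0.02 to 0.15) and below it in LN-OlapR (log2 ratio -0.37, interval -0.43 to -0.31). TYMS, thymidylate synthase, was at 148 (LNCaP) and 158 (LN-OlapR) normalized CPM, and 149 (C4-2B) and 115 (2B-OlapR). It was lower in 2B-OlapR (log2 ratio -0.38, interval -0.45 to -0.30) and slightly higher in LN-OlapR (log2 ratio 0.09, interval 0.02 to 0.15), where scaling by total counts gave 0.0031. TYMS shares 39.1% of its exon bases with ENOSF1 on the opposite strand, and whether strand was used in counting is not given in the sources used here.

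E2F1, on chromosome 20, 33675683 to 33686404 (ENSG00000101412.13), had the highest 2B ratio of the 45. It was at 93.9 (LNCaP) and 102 (LN-OlapR) normalized CPM, and 129.7 (C4-2B) and 227 (2B-OlapR). The level in 2B-OlapR was 1.75-fold that in C4-2B (log2 ratio 0.81, interval 0.74 to 0.87), and LN-OlapR was slightly above LNCaP (log2 ratio 0.12, interval 0.04 to 0.20). The cyclin E genes, which drive CDK2 at the G1/S boundary, were below E2F1 per kb of transcript in each library. CCNE1 was at 20.01 (LNCaP) and 22.1 (LN-OlapR) normalized CPM, and 16.7 (C4-2B) and 19.3 (2B-OlapR). CCNE2 was at 15.7 (LNCaP) and 13.3 (LN-OlapR) normalized CPM, and 16.9 (C4-2B) and 17.1 (2B-OlapR). Their 2B log2 ratios were 0.20 and 0.02, and both intervals included 0.

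**Figure D4:**
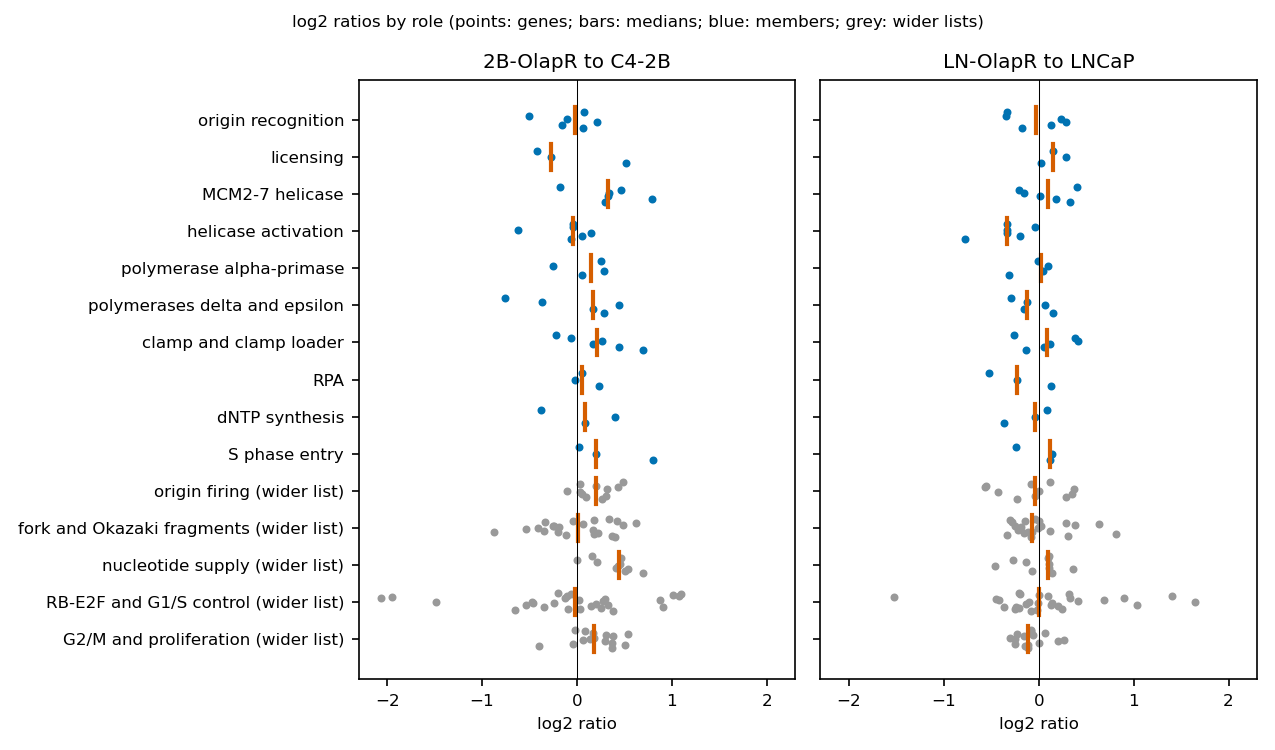
Log2 ratios by role in the 2B pair (left) and the LN pair (right), with a point per gene and an orange bar at the median; members are blue and wider lists grey. In the 2B pair MCM2-7 (median 0.33) and the wider nucleotide supply list (0.44) lie right of 0, and in the LN pair helicase activation (-0.33) lies left of it.

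Wider lists placed the members in their surroundings. Their counts are to be read against the shares of all genes: in the 2B pair 31.5% had intervals above 0 and 30.8% below, with 10.7% and 13.5% past 1.5-fold, and in the LN pair 31.7% and 31.3%, with 10.6% and 10.8%. In nucleotide supply, 9 of 10 genes had 2B intervals above 0 and none below, with a median log2 ratio of 0.44. RRM2B, the p53-regulated ribonucleotide reductase subunit, was at 43.1 (LNCaP) and 47.5 (LN-OlapR) normalized CPM, and 23.8 (C4-2B) and 38.5 (2B-OlapR), with the highest 2B ratio of the list (log2 ratio 0.70, interval 0.53 to 0.86), and IMPDH2 (-0.0025) and NME1 (0.16) were the lowest. In the LN pair 6 lay above 0 and 3 below. SAMHD1, which degrades deoxynucleotides, was lowest at -0.46, IMPDH2 was at -0.28 and RRM2B at 0.14.

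The origin firing list was broader than its name and included MCM8, MCM9 and MCMBP. It had 6 of 11 intervals above 0 and none below in the 2B pair. MCMBP (0.49) and DONSON (0.43) were highest there, and MTBP (-0.11) and MCM9 (0.03) were lowest. The LN pair had 4 above and 4 below, with RECQL4 (0.37) and TOPBP1 (0.35) highest and DONSON (-0.57) and MCM8 (-0.56) lowest. Of 22 fork and Okazaki fragment genes, 9 lay above and 9 below 0 in the 2B pair. RNASEH2C (0.62) and RNASEH2A (0.48), subunits of the enzyme that removes ribonucleotides from DNA, were highest, and WDHD1 (-0.88) and CLSPN (-0.53), which act at the fork, were lowest. In the LN pair 6 lay above and 10 below, with POLD4 (0.81) and RNASEH2B (0.63) highest and DNA2 (-0.33) and CHAF1B (-0.30) lowest.

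The genes that control E2F and the G1/S step had wider ratios than the members. Of 29 on the list 28 passed the filter on low values, and CCND2 was not analysed here. In the 2B pair 5 were past 1.5-fold higher, namely CDKN2D (1.09), CDKN2B (1.07), CDKN2C (1.02), E2F8 (0.91) and CCND3 (0.87), and 4 were past it lower, namely CDKN1A (-2.06), CDKN1C (-1.95), CDK6 (-1.49) and E2F3 (-0.65). CDKN1A, which encodes the CDK inhibitor p21, was at 76.1 (LNCaP) and 142 (LN-OlapR) normalized CPM, and 77.8 (C4-2B) and 18.6 (2B-OlapR), so that it was lower in 2B-OlapR and higher in LN-OlapR than in the parent. In the LN pair 5 were past 1.5-fold higher, namely CDK6 (1.65), CDKN2B (1.40), RB1 (1.04), CDKN1A (0.90) and CCND3 (0.68), and CDKN1C (-1.53) was past it lower; CDC25A was next lowest at -0.45. CDKN2C, E2F8, CCND3, E2F3 and RB1, and CDK6 in the 2B pair and CDKN1A in the LN pair, were named after their values were seen. CDKN2B and CDKN1C were below 5 normalized CPM in each library.

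Genes of G2 and mitosis gave a second reading of proliferation. MKI67, the proliferation marker, was at 399 (LNCaP) and 369 (LN-OlapR) normalized CPM, and 316 (C4-2B) and 409 (2B-OlapR) (2B pair 0.37, LN pair -0.11). In the 2B pair 10 of 15 intervals lay above 0 and 1 below, with a median of 0.18, from CDK1 (-0.40) and CCNB2 (-0.04) to CCNB1 (0.51) and KIF11 (0.54). In the LN pair 3 lay above and 10 below, with a median of -0.11, from BUB1B (-0.31) and BUB1 (-0.25) to AURKA (0.20) and AURKB (0.26). The share of cycling cells was not measured, and its part in the members' ratios was not tested.

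The third comparison set the castration-resistant parental line C4-2B against LNCaP. It shares a library with each pair, so its values are given beside theirs and no overlap was taken. Of the members 7 were more than 1.5-fold higher in C4-2B, against 16.1% of all genes, and ORC3 was more than 1.5-fold lower, against 16.1%. Intervals lay above 0 for 18, against 34.1%, and below 0 for 13, against 36.2%. The widest differences were RFC3, 2.90-fold higher (log2 ratio 1.54, interval 1.42 to 1.66), and ORC3 (log2 ratio -1.63, interval -1.98 to -1.29). CDT1 was 2.23-fold higher (log2 ratio 1.16, interval 1.07 to 1.25). The others past 1.5-fold were POLD1 (0.75), RFC4 (0.70), CDC45 (0.69), GMNN (0.60) and MCM3 (0.60). MCM6 (-0.50), ORC5 (-0.48) and PCNA (-0.29) were lower in C4-2B with intervals below 0. The median over the members was 0.06, beside -0.016 over all genes tested, and the licensing genes had the highest median of the role groups, 0.60.

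**Figure D5:**
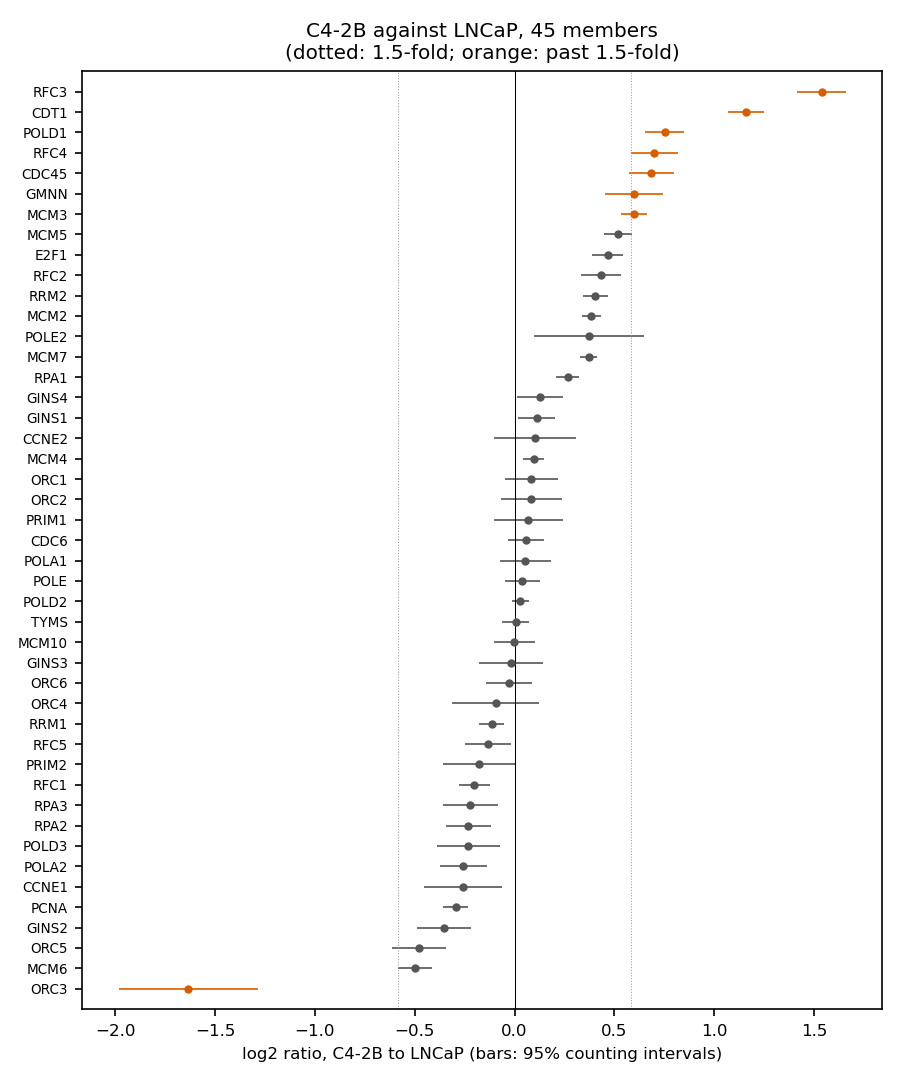
Log2 ratio of C4-2B to LNCaP for the 45 members in order, with bars for 95% counting intervals and dotted lines at 1.5-fold. RFC3 (1.54) and CDT1 (1.16) stand above the rest, and ORC3 (-1.63) is alone at the bottom.

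Genes next to the members at the extremes were read as well, over 1 Mb on either side. ORC3 (ENSG00000135336.16) lies on chromosome 6, 87590067 to 87667453, and 7 of its 7 analysed neighbours were more than 1.5-fold lower in C4-2B, their median log2 ratio against LNCaP being -1.08. RFC3 lies on chromosome 13, 33818049 to 33966558, and 2 of its 3 neighbours were more than 1.5-fold higher, with a median of 1.09. Around POLD1, on chromosome 19, 50384204 to 50418016, 15 of 51 neighbours were past 1.5-fold higher and 5 lower, with a median of 0.26. The neighbours past 1.5-fold higher include KLK2 (log2 ratio 0.97) and KLK3 (5.50), the gene in which the LNCaP library stood apart. For the other members past 1.5-fold between the parental lines the neighbours' medians were 0.24 for CDT1 (26 of 36 higher in C4-2B), 0.38 for GMNN (10 of 12 higher), 0.26 for CDC45 (27 of 39 higher), 0.13 for RFC4 (7 of 10 higher) and -0.12 for MCM3 (5 of 11 higher). In the 2B pair 19 of the 20 neighbours of GINS3 (chromosome 16, 58295080 to 58406144) were lower in 2B-OlapR, with a median of -0.30, and 14 of the 21 of POLE2 (chromosome 14, 49643555 to 49688422) were lower, with a median of -0.33. Neighbours of MCM3 (chromosome 6, 52264009 to 52284881) were lower for 10 of 12, with a median of -0.33, while MCM3 itself was higher. Around E2F1 11 of 22 were higher and 11 lower. The medians were 0.22 for the 15 neighbours of PCNA and, in the LN pair, -0.17 for the 38 of CDC45 (chromosome 22, 19479459 to 19520612). Copy number was not measured in these data, and its part in these ratios was not tested.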

How the data were processed

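RNA-seq was done on 4 cell lines, 1 library each. The labels describe stranded mRNA libraries from 100 ng of TRIzol-extracted RNA; they give 48 hours of plating, and the study's methods give a longer time. The deposited table holds estimated counts per gene: 46.2% of the values were not whole, and each gene summed to at least 10 over the libraries. The submitters' processing notes list STAR, Partek, GRCh38 and hg38 without roles; the counting tool and annotation are not given in the sources used here. The authors pooled no replicates.

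Counts were rounded to whole numbers and scaled by TMM (edgeR 4.0.16, R 4.3.3), with factors from all 4 libraries. Log2 ratios used a pseudocount of 0.5 counts, and 95% normal intervals came from the 2 counts, covering counting error only. A comparison took the genes whose 2 libraries averaged 1 normalized CPM or more, and a gene was called past 1.5-fold. Within a pair no p-value was computed, since each line has 1 library. An edgeR quasi-likelihood fit of both resistant against both parental lines, with the lineage as a block and without, was added after the data were seen. The share called over all genes stands beside the first count of members in each comparison. It was taken over all genes past the filter and was not matched to the members in level. The steps were checked on simulated counts.

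Positions and lengths came from GENCODE 29 on GRCh38, matched by gene ID without version for 21395 of 22637 genes, and promoters from RefSeq (GRCh38.p14). Of the members 39 had a value that was not whole in some library. CCNE2 shares 37.0% of its exon bases with INTS8 on the opposite strand, and POLA2 35.1% with AP000944.2 on the same strand, so reads may have been split between them. PCNA has 3 named pseudogenes in GENCODE with no row here; RRM2P3, a pseudogene of RRM2, had 16 to 58 counts.

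Any member may be named; values in each library are given for members past 1.5-fold, for those on opposite sides of 0 in the pairs, and for the ends of each role group. Of each wider list the 2 highest and 2 lowest genes in each pair, and MKI67, are named, except that 1 gene is not reported here. The members and lists were chosen with earlier results of these data known. Alternatives were total counts, DESeq2 1.42.0 size factors, upper quartile factors, a pseudocount of 2, minimum means of 0.1 and 10, counts left unrounded, merged exon lengths, and, added after the low KLK3 in LNCaP was seen, TMM factors from the 2 libraries compared.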

Additional observations from a re-analysis of the deposited data

Results flagged for a closer look

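Here 8 members are listed because the resistant line was above its parent in 1 pair and below it in the other. Both counting intervals lay away from 0. The count, 8 of 45, was near the share of all genes, 16.3%. The difference, the 2B log2 ratio minus the LN log2 ratio, was not tested, since each line has 1 library and the fit over both pairs has no such term, and its interval comes from the 4 counts alone. Of these, 5 had the resistant line above its parent in the 2B pair and below it in the LN pair. PCNA, the sliding clamp, differed by 0.83 (interval 0.74 to 0.91), the widest gap of the 8. The helicase subunit genes MCM6 and MCM5 differed by 0.66 (0.55 to 0.78) and 0.49 (0.39 to 0.59). RRM1, of ribonucleotide reductase, differed by 0.45 (0.36 to 0.54), and POLD2, of polymerase delta, by 0.32 (0.26 to 0.38). The other 3 went the opposite way, lower in 2B-OlapR and higher in LN-OlapR. The differences were -0.58 (-0.64 to -0.52) for MCM7, -0.56 (-0.68 to -0.43) for the licensing factor CDT1 and -0.46 (-0.56 to -0.36) for thymidylate synthase. The MCM2-7 genes thus appear on both sides. With total counts in place of TMM, RRM1 and TYMS left these members and MCM4 and RRM2 joined them, and the LN log2 ratio of TYMS was 0.0031, within its counting error. DESeq2 size factors and upper quartile factors each gave 10 members, with GMNN and GINS2 added. TMM factors from the 2 libraries compared gave 9, with GMNN added.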

How the results depend on the processing

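The labels number no replicates, so pairing came from the lineage: of the members 0 had an adjusted p under 0.05 in edgeR's quasi-likelihood fit of resistant against parental lines with the lineage block, and 0 without it (at an unadjusted p under 0.05, 0 of 45 in each; of 15645 genes 1279 with the block and 363 without). DESeq2 size factors, a pseudocount of 2, upper quartile factors, unrounded counts, a minimum mean of 0.1 and TMM factors from the 2 libraries compared left the counts of members past 1.5-fold and with intervals above or below 0 within 1.5 times their value, and the sign of the medians. With total counts in place of TMM, 2 members were past 1.5-fold lower in the LN pair (CDC45 and RPA3), and 6 members had intervals above 0 in that pair; CDC6, MCM4, POLA2, POLD3 and RFC1 changed sign in the LN pair. With a minimum mean of 10 normalized CPM, POLE2 left the 2B pair and 1 member stayed past 1.5-fold lower, ORC3 left the comparison of the parental lines and 0 stayed lower, and the median of the members in the LN pair was 0.0031; these follow from fewer genes being tested. Merged exon lengths moved 44 of 48 levels per kb. Spread between cultures, passages or library preparations was not measured, so ratios past their counting interval may still lie within it.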
